A study of Mus musculus with 2 samples.

Results

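Tumor necrosis factor (TNF) signaling was followed through 10 genes in the lungs of mice bearing 4T1 tumors, a transplantable mouse mammary carcinoma that seeds the lungs. The members were chosen by name from the 32285 genes of each count matrix: the ligand Tnf, its receptors Tnfrsf1a and Tnfrsf1b, the NF-κB subunits Nfkb1 and Relb, the feedback inhibitors Nfkbia and Tnfaip3, the adaptor Traf1, the ubiquitin ligase Birc3 and the TNF-induced gene Tnfaip2. Each symbol matched 1 matrix row. Single-cell RNA sequencing was performed on 1 library from saline-treated mice and 1 library from mice given nanoparticles (NPs) of the polymer PLG, poly(lactide-co-glycolide), without a drug cargo. All mice were female, of genotype BALB/cJ and 12 weeks of age, and carried a 4T1 tumor for 14 days. Saline or NPs were given intravenously at intervals of 3 days from day 1 after inoculation, so both groups were tumor-bearing and injected, and no tumor-free lung entered the comparison. The labels give 4 mice pooled per library, the study's methods give another number, and animals within a pool cannot be separated. Lungs were digested with liberase and red cells lysed. With 1 library per group, no difference below has a replicate check and no p-value is given.

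TNF is a cytokine released mainly by macrophages, neutrophils and T cells. It binds TNFR1, encoded by Tnfrsf1a and found on most cell types, and TNFR2, encoded by Tnfrsf1b and found mainly on leukocytes and endothelium. Receptor engagement recruits adaptors and ubiquitin ligases and activates the IκB kinase, which has the inhibitor IκBα degraded and so releases NF-κB into the nucleus. NF-κB then induces its own brakes, IκBα (Nfkbia) and the ubiquitin-editing enzyme A20 (Tnfaip3). These feedback transcripts are therefore widely used as readouts of recent NF-κB activity, although other stimuli such as Toll-like receptor ligands and interleukin-1 induce them too.

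Cells were kept at 500 to 5000 detected genes and under 7.5% mitochondrial transcripts, which left 8662 saline and 8333 NP cells. Their medians were 6474.5 and 6008 unique molecular identifiers (UMIs, each counting 1 captured transcript). The libraries shared 21 cell barcodes. Clusters were named only by fixed marker genes, so each class is neutrophil-like, monocyte-like and so on, and the word "like" is left out below. Neutrophils were 5693 saline and 3203 NP cells, classical monocytes 619 and 783, non-classical monocytes 91 and 349, alveolar macrophages 175 and 253, and endothelial cells 433 and 1556. Clusters with mixed or too few markers, or with markers of another class leading, stayed unnamed, 228 saline and 518 NP cells in all. Levels are given as CPM, counts per 1000000 UMIs of a class, and the NP effect is the log2 ratio of CPM, NP over saline. All intervals are exact 95% intervals that cover counting error only. A ratio was formed in the 12 classes with at least 30 cells per library, and a gene was tested where it had at least 50 UMIs over both libraries. A difference is called where it reached 2-fold.

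Among the 120 pairs of a member and a class, 99 had enough UMIs. Of these, 13 were at least 2-fold higher and 2 at least 2-fold lower in the NP library, against 2.78% and 1.05% of all gene and class pairs measured in the same way. The members were chosen with earlier results of these data known, so these counts are a description and not an independent check. The higher pairs were feedback and target genes: Traf1 in 4 classes, Tnfaip2 in 3, Nfkbia and Tnfaip3 in 2 each, and Relb and Nfkb1 in 1 each. Neither receptor was called in any class, although Tnfrsf1b reached 1.58 in dendritic cells when each cell was named singly by its markers and Tnfrsf1a reached 1.05 in epithelial cells with equal weight per cell. Both lower pairs were Tnf itself, in alveolar macrophages and dendritic cells. The ratio was above 0 in 76 pairs, with its interval above 0 in 45 and below 0 in 9.

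**Figure D1:**
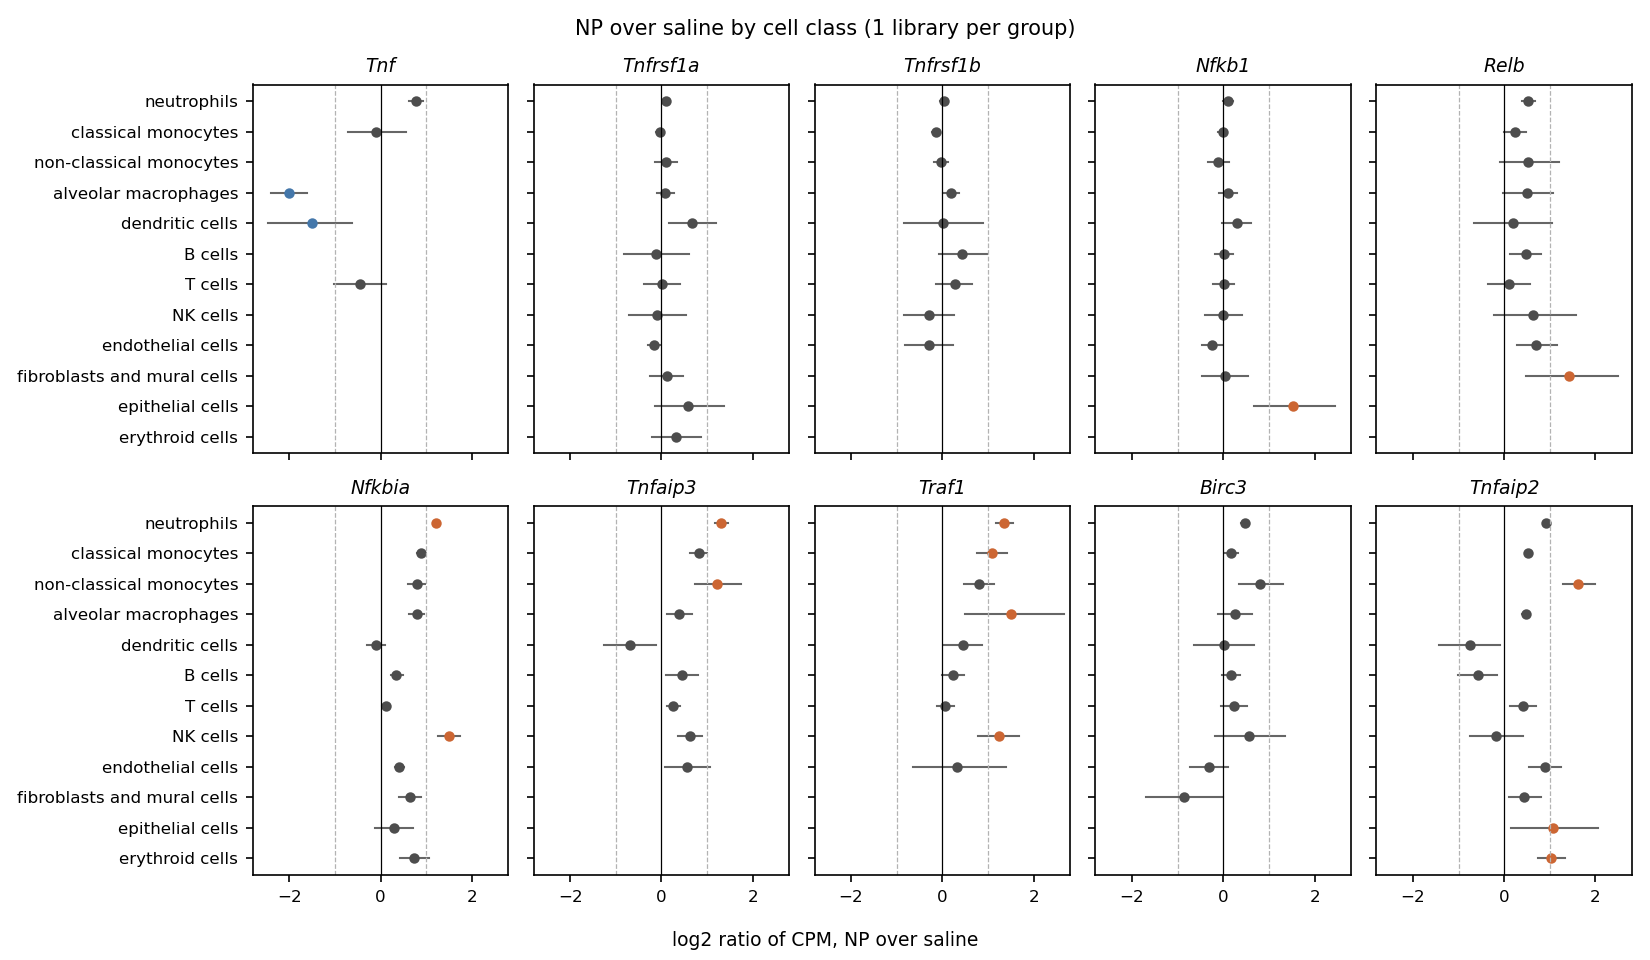
NP over saline for the 10 members in 12 cell classes. The horizontal axis is the log2 ratio of CPM, points are ratios and lines are 95% counting intervals. Orange points were at least 2-fold higher, blue points at least 2-fold lower, dashed lines mark 2-fold, and pairs with under 50 UMIs are not drawn. The receptor ratios lie between -0.30 and 0.68, whereas Nfkbia, Tnfaip3 and Traf1 lie at or above 1 in neutrophils.

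Tnf (ENSMUSG00000024401, chr17:35199381-35202007, minus strand of GRCm38) encodes the ligand. Over all cells its level was 14.0 CPM (13.2 to 14.8) in the saline library and 14.4 CPM (13.5 to 15.3) in the NP library, and the intervals overlapped. In such pooled values fewer cells of a type and less RNA per cell cannot be told apart. The classes holding the transcript differed. Neutrophils held 681 of the 1088 Tnf UMIs in the saline library, or 62.6% (59.6 to 65.5%), and 600 of 1042 in the NP library, or 57.6% (54.5 to 60.6%). They were 65.7% of saline cells but only 38.4% of NP cells. Alveolar macrophages held 17.4% of Tnf UMIs in the saline and 7.20% in the NP library. Interstitial macrophages, the macrophages outside the airspaces, held 1.01% and 6.72%, from 21 and 45 cells. This class was a single cluster led by C1qa and C1qb, with Prg4, Alox15 and Fcna also among its leading genes. Where in the lung its cells lay was not tested. Endothelial, fibroblast and mural, and epithelial cells together held 0.643% and 1.34%.

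Within neutrophils Tnf was 14.0 CPM (12.9 to 15) in the saline and 23.9 CPM (22.0 to 25.9) in the NP library. The log2 ratio was 0.78 (0.62 to 0.94), under 2-fold. With each cell thinned to 1000 UMIs, a Tnf UMI was seen in 1.04% (0.791 to 1.34%) of saline and 2.06% (1.60 to 2.62%) of NP neutrophils. Unthinned, the shares were 6.87% and 9.24%, at median depths of 6042 and 5322 UMIs. Fibroblast and mural cells, which should hold little Tnf, gave 1.60% and 0.397% at median depths of 4681 and 4410 UMIs. Unthinned, neutrophils were above this background in both libraries. Thinned, it was 0 of 119 saline cells and 0.408% of NP cells, too few cells at that depth for a comparison with neutrophils.

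In alveolar macrophages Tnf was 61.1 CPM in the saline and 15.3 CPM in the NP library, a log2 ratio of -2.0 (-2.41 to -1.61). At least 2-fold lower levels were found for 0.277% of the 8652 genes tested in this class. The share of alveolar macrophages with a Tnf UMI was nevertheless nearly equal, at 16.0% (28 of 175 cells) and 15.8% (40 of 253 cells). The difference lay in 3 saline cells, which held 84, 39 and 23 Tnf UMIs and thus 77.2% of the 189 in the class. The highest NP alveolar macrophage held 9. Without the 3 highest cells of each library the levels were 14.2 CPM (10.3 to 19.1) and 11.1 CPM (8.36 to 14.5), and the log2 ratio was -0.35 (-0.95 to 0.27). A mitochondrial limit of 5%, which removed 52.0% of saline and 47.8% of NP alveolar macrophages, gave -0.11.

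Dendritic cells showed the same dependence on few cells. Tnf was 56.9 CPM from 40 UMIs in the saline and 20 CPM from 15 UMIs in the NP library, a log2 ratio of -1.51 (-2.47 to -0.62), and 1.63% of 3748 genes were at least 2-fold lower. The 3 highest saline cells held 80.0% of the UMIs. Without the 3 highest cells of each library the ratio was -0.47 (-2.28 to 1.25). The neutrophil ratio moved little in the same exercise, to 0.70 (0.53 to 0.86).

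**Figure D2:**
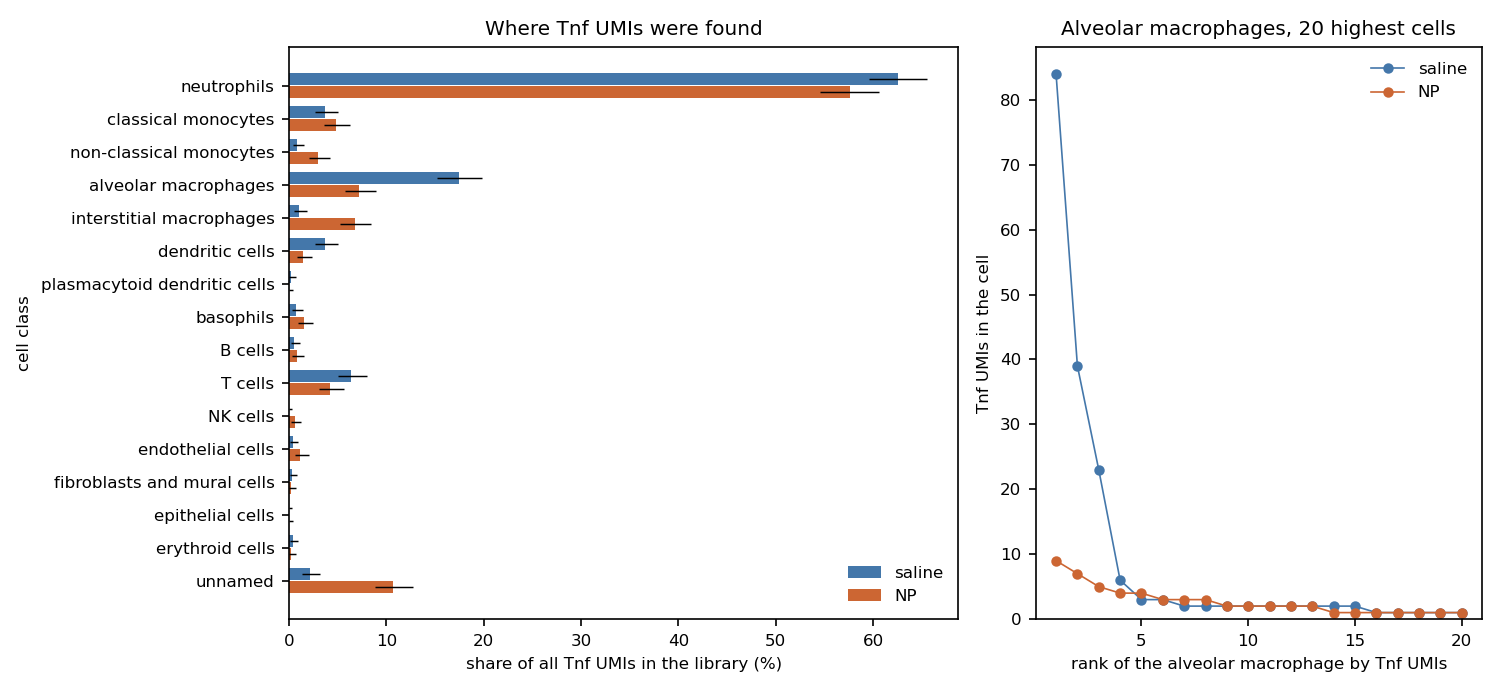
Left, the share of all Tnf UMIs of a library (percent) found in each cell class, with 95% binomial intervals; right, Tnf UMIs per cell for the 20 alveolar macrophages with most Tnf UMIs. Neutrophils held most Tnf in both libraries, and 3 saline alveolar macrophages, at 84, 39 and 23 UMIs, stand apart from all NP cells.

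In the saline library the Tnf level ran from interstitial macrophages (63.0 CPM) through alveolar macrophages, dendritic cells (56.9 CPM) and basophils (45.9 CPM) to T cells (19.2 CPM), with no neighbors told apart by their intervals. In the NP library interstitial macrophages, at 141 CPM, lay above basophils at 59.4 CPM, which lay above neutrophils. Of the 16 basophil Tnf UMIs, 87.5% were in 3 cells, without which basophils stood at 8.39 CPM and neutrophils, less their own 3 highest cells, at 21.7 CPM. Of the 70 Tnf UMIs in NP interstitial macrophages, 61.4% were in 3 cells. In T cells, a further known source, Tnf was 19.2 CPM and 14.1 CPM, a log2 ratio of -0.45 (-1.03 to 0.12), and in classical monocytes it was 4.00 and 3.77 CPM. No Tnf UMI was seen in 127 saline NK cells, which allows up to 2.36% of cells with a Tnf UMI at this depth and sets no limit on cells expressing the gene, and 6 were seen in the NP NK cells. Epithelial cells held none in either library.

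Tnfrsf1a (ENSMUSG00000030341, chr6:125349362-125362484, plus strand), the gene of TNFR1, was highest in endothelial cells, at 338 CPM in the saline and 302 CPM in the NP library. Non-classical monocytes followed at 271 and 288 CPM and could not be told apart from them. Both lay above neutrophils, at 199 and 213 CPM. B cells were near the bottom with 12.0 and 11.1 CPM. Tnfrsf1b (ENSMUSG00000028599, chr4:145213463-145246870, minus strand), the gene of TNFR2, had a steeper order: non-classical monocytes stood alone at 632 and 619 CPM, above classical monocytes at 186 and 169 CPM. Alveolar macrophages (136 and 155 CPM) came next, and neutrophils were at 62.0 and 63.3 CPM. Endothelial cells, which led for Tnfrsf1a, had 23.8 and 19.3 CPM.

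**Figure D3:**
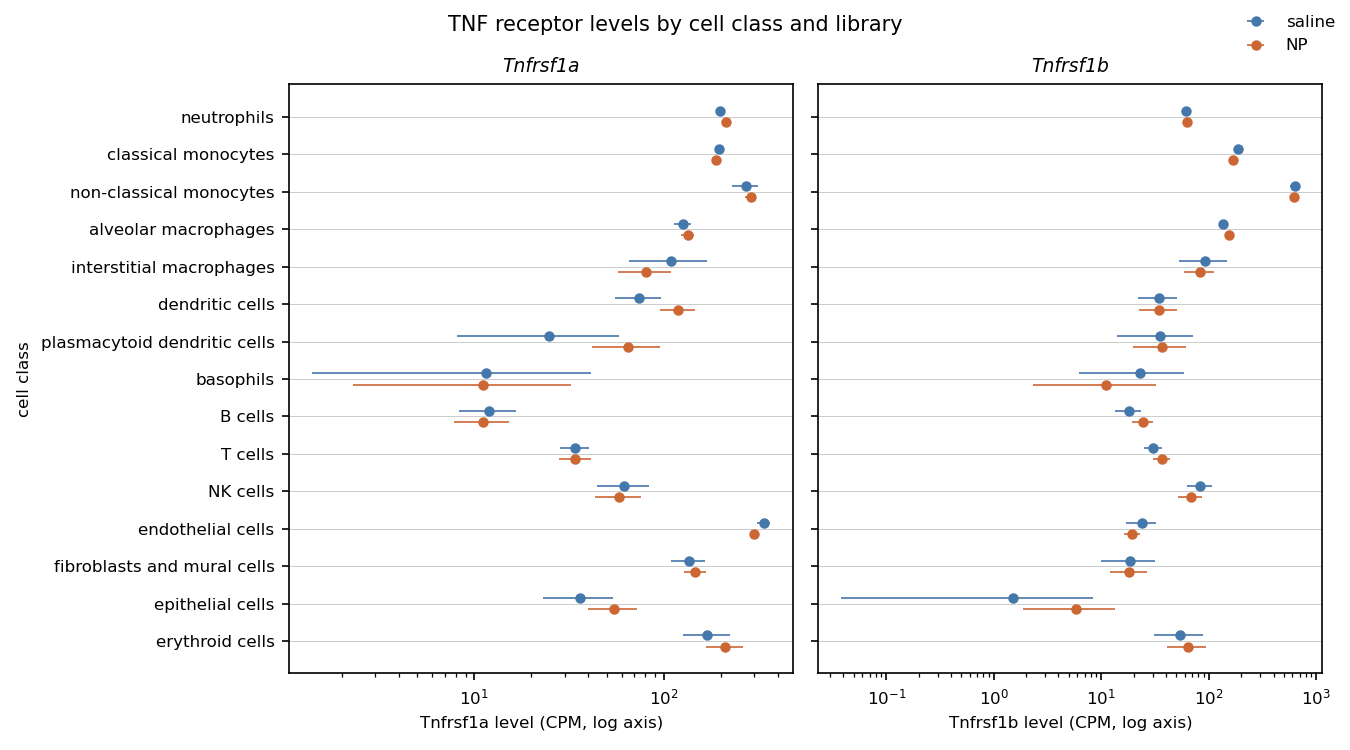
Levels of Tnfrsf1a and Tnfrsf1b (CPM, log axis) in 15 cell classes, for the saline (blue) and NP (orange) libraries, with 95% counting intervals. Endothelial cells and non-classical monocytes lead for Tnfrsf1a, non-classical monocytes stand alone for Tnfrsf1b at 632 and 619 CPM, and the colors overlap in most classes.

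The balance between the receptors differed more between classes than between libraries. Tnfrsf1b made up 6.58% of both receptors' UMIs in saline and 6.0% in NP endothelial cells, 23.8% and 22.9% in neutrophils, 48.6% and 47.0% in classical monocytes, and 70.0% and 68.3% in non-classical monocytes. The NP ratios of Tnfrsf1a ran from -0.16 to 0.68 over 12 classes with a median of 0.08. Those of Tnfrsf1b ran from -0.30 to 0.44 over 9 classes with a median of 0.02. The endothelial decrease of Tnfrsf1a, -0.16 (-0.29 to -0.03), and the dendritic cell increase, 0.68 (0.17 to 1.20), had intervals off 0 but were under 2-fold.

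Nfkb1 (ENSMUSG00000028163, chr3:135584655-135691547, minus strand) encodes p105, the precursor of the p50 subunit. It was highest in non-classical monocytes, at 326 and 302 CPM, and in dendritic cells, at 220.5 and 269 CPM. Neutrophils were low, at 40.8 and 44.1 CPM, with a log2 ratio of 0.11. Over 11 classes the median ratio was 0.01. The exception was epithelial cells, where Nfkb1 was 22.7 CPM from 15 UMIs and 64.8 CPM from 56 UMIs, a log2 ratio of 1.52 (0.67 to 2.44), in a class where 14.6% of genes were at least 2-fold higher and the median gene stood at 0.40. The class itself differed: epithelial markers summed to 420512 CPM in the saline and 250014 CPM in the NP library, fibroblast and mural markers to 92.1 and 346 CPM, and 4 of 51 saline and 24 of 48 NP cells had 5% or more mitochondrial UMIs. Their part in the result was not tested.

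Relb (ENSMUSG00000002983, chr7:19606217-19629438, minus strand), the subunit of the non-canonical pathway and itself a target of the canonical one, had a ratio above 0 in all 10 classes tested, from 0.11 to 1.41, with the interval above 0 in 4. In fibroblast and mural cells it was 15.7 CPM from 11 UMIs and 41.8 CPM from 62 UMIs, a log2 ratio of 1.41 (0.47 to 2.49), where 5.34% of genes were at least 2-fold higher. Neutrophil markers in this class summed to 34199 CPM in the saline and 13207 CPM in the NP library, and endothelial markers to 1279.9 and 4375 CPM. Their part in the result was not tested. In endothelial cells Relb stood at 30 and 48.9 CPM (0.70, 0.28 to 1.15) and in neutrophils at 18.9 and 27.2 CPM (0.53, 0.38 to 0.67). Its median ratio was 0.52, beside 0.01 for Nfkb1.

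Nfkbia (ENSMUSG00000021025, chr12:55489410-55492647, minus strand), which encodes IκBα, had a ratio above 0 in 11 of 12 classes, the exception being dendritic cells at -0.10. It was 362 CPM in saline and 842 CPM in NP neutrophils, from 17673 and 21151 UMIs, a log2 ratio of 1.22 (1.19 to 1.25). In NK cells it was 252 and 711 CPM, a ratio of 1.5 (1.25 to 1.75), where 1.08% of genes were at least 2-fold higher. In the order of classes, neutrophils ranked 8 with saline and 3 with NPs. Classical monocytes (149 and 277 CPM) and non-classical monocytes (444 and 770.3 CPM) had ratios of 0.89 and 0.79. B cells had 0.35, T cells 0.11 and endothelial cells 0.41, each with its interval above 0.

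Tnfaip3 (ENSMUSG00000019850, chr10:19000910-19015657, minus strand), which encodes A20, was 15.3 CPM in saline and 37.9 CPM in NP neutrophils, a log2 ratio of 1.31 (1.17 to 1.45). In non-classical monocytes it was 60.0 and 140.1 CPM, a ratio of 1.22 (0.74 to 1.75) from 37 and 425 UMIs, where 3.00% of genes were at least 2-fold higher. Classical monocytes had 33.6 and 59.2 CPM (0.82, 0.63 to 1.00) and NK cells 262 and 403 CPM (0.62, 0.36 to 0.89). Neutrophils remained near the bottom of the order for A20 in both libraries, below lymphocytes, whose levels were 247 and 297 CPM in T cells. Dendritic cells had 93.9 and 58.7 CPM, a ratio of -0.68 (-1.26 to -0.11).

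Promoter sequences are shown for these inhibitors, both called in neutrophils, because each held a match to the NF-κB consensus. The window of Traf1, also called in neutrophils, held none. In the 250 bases before each RefSeq start, the 10-base NF-κB consensus was found on either strand in 2 of the 8 members with an entry, Nfkbia and Tnfaip3. It was found in 3.90% of all 32851 promoter windows of this length, and a further Tnfaip3 window at another start held none. The sequences are from RefSeq on GRCm38.p6, read 5′ to 3′ along the gene's strand, with the match in capitals. The Nfkbia window is chr12:55492648-55492897 (minus strand), with the match beginning 29 bases before the start. The Tnfaip3 stretches, with matches beginning 125 and 12 bases before the start, are chr10:19015516-19015545 and chr10:19015411-19015432 (minus strand). That RefSeq start lies inside the GENCODE bounds given above for Tnfaip3, so both of its matches do too, and the windows of Tnfrsf1a, Tnfaip2 and Birc3 also reach into the GENCODE bounds of their genes.
Nfkbia: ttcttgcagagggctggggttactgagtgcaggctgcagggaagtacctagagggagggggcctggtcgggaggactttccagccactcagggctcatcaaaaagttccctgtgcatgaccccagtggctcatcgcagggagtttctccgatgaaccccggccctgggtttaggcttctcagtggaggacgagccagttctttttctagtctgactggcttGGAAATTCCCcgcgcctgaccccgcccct
Tnfaip3 distal: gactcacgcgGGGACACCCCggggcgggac
Tnfaip3 proximal: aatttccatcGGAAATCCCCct
A match is a description of these letters and not evidence of binding, and the absence of a match in the other 6 says nothing about the factor there.

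Traf1 (ENSMUSG00000026875, chr2:34941750-34961772, minus strand), an adaptor of TNFR2 induced by NF-κB, had a ratio above 0 in all 9 classes tested, with the interval above 0 in 6 and a median of 0.80. It was 8.40 and 21.5 CPM in neutrophils (1.36, 1.17 to 1.54), 10.6 and 22.5 CPM in classical monocytes (1.09, 0.76 to 1.42) and 84.4 and 198 CPM in NK cells (1.23, 0.79 to 1.69). In classical monocytes it was the only member called, where 1.34% of genes were at least 2-fold higher. Its level was highest in non-classical monocytes, at 146 and 254 CPM, a ratio of 0.80 (0.48 to 1.13). In the saline library they were not told apart from T cells, at 140.3 CPM.

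In alveolar macrophages the Traf1 ratio of 1.5 (0.49 to 2.66), where 1.10% of genes were at least 2-fold higher, rested on a small subset. It came from 10 saline and 45 NP UMIs, of which 9 and 43 lay in a sub-cluster of 30 saline and 52 NP cells that also carried neutrophil markers. A doublet caller marked 23.3% and 61.5% of this sub-cluster. In the other 145 and 201 alveolar macrophages there were 1 and 2 Traf1 UMIs. Nfkbia had a log2 ratio of 1.86 within the sub-cluster and 0.11 (136 and 147 CPM) in the other cells. Neutrophil markers summed to 10920.5 and 14963 CPM in the whole class, and their part in the result was not tested.

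Birc3 (ENSMUSG00000032000, chr9:7848699-7873186, minus strand), the ubiquitin ligase cIAP2 that acts in the receptor complex, was called in no class. It was 55.6 and 77.2 CPM in neutrophils (0.48, 0.39 to 0.56) and 69.7 and 122 CPM in non-classical monocytes (0.81, 0.35 to 1.30). B cells held the highest level, at 125 and 140.2 CPM, not told apart from the next class in either library. In fibroblast and mural cells it was 34.3 and 18.9 CPM, from 24 and 28 UMIs (-0.86, -1.70 to -0.01).

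Tnfaip2 (ENSMUSG00000021281, chr12:111442469-111455018, plus strand), a TNF-induced gene of myeloid cells and endothelium, was highest in alveolar macrophages (621 and 862 CPM), neutrophils (501 and 944 CPM) and erythroid cells (449 and 919 CPM). The neutrophil ratio was 0.91 (0.89 to 0.94), just under 2-fold. It was called in non-classical monocytes, at 118 and 364 CPM (1.62, 1.28 to 1.98), from 73 and 1104 UMIs. It was called also in epithelial cells (1.06, 0.14 to 2.05), with the differences in that class given for Nfkb1 and with 19 of its 38 NP UMIs in 1 of the 6 NP cells that held any, and in erythroid cells (1.03, 0.74 to 1.33), a class in which 8.04% of genes were at least 2-fold higher. The erythroid class carried neutrophil markers summing to 199239.9 and 183893 CPM, so its Tnfaip2 cannot be told apart from that of neutrophils. In endothelial cells Tnfaip2 was 45.9 and 85.2 CPM (0.89, 0.55 to 1.25), and the ratio was -0.37 once called doublets were removed.

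**Figure D4:**
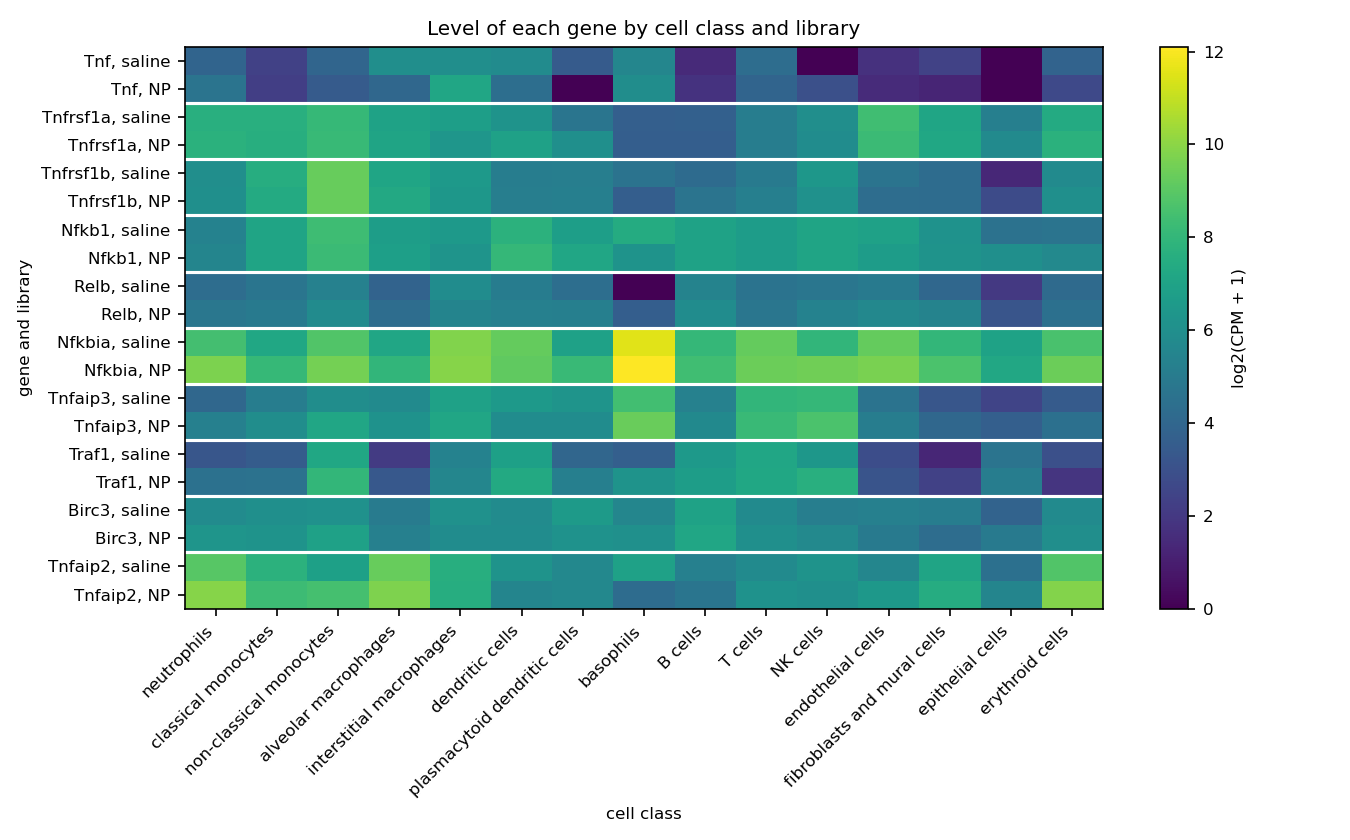
Level of each member as log2(CPM + 1) in 15 cell classes, with the saline library above the NP library for each gene. Colors may be compared along a row and within a gene, not between genes; basophils lead for Nfkbia and Tnfaip3, and the receptor rows look alike in both libraries.

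Taken by class, neutrophils carried 3 called members of 10 (Nfkbia, Tnfaip3 and Traf1) where 5.46% of 9904 genes were at least 2-fold higher and 1.11% at least 2-fold lower, and the members' median ratio was 0.65 beside -0.10 for all genes. Non-classical monocytes carried 2 of 9 (Tnfaip2 and Tnfaip3) beside 3.00% of genes, with a median of 0.79. NK cells carried 2 of 9 (Nfkbia and Traf1) beside 1.08%. Classical monocytes carried 1 of 10 beside 1.34%, with a median of 0.21. Alveolar macrophages carried 1 of 10 beside 1.10%, fibroblast and mural cells 1 of 6 beside 5.34%, epithelial cells 2 of 4 beside 14.6% and erythroid cells 1 of 3 beside 8.04%. Dendritic cells carried 0 of 10 beside 1.33%. With each cell named singly by its markers, Relb (1.64) and Tnfrsf1b (1.58) were called in dendritic cells. An unnamed cluster with dendritic cell markers among its leading genes lay outside this class and is described below. B cells, T cells and endothelial cells carried none, where 0.380%, 0.990% and 1.47% of genes were at least 2-fold higher. No member was at least 2-fold lower in classical monocytes (0.590% of genes), non-classical monocytes (1.47%), B cells (0.655%), T cells (0.792%), NK cells (1.08%), endothelial cells (1.12%), fibroblast and mural cells (2.04%), epithelial cells (1.99%) or erythroid cells (1.51%). Neutrophil markers in NK cells summed to 13175 and 20784 CPM, and in classical monocytes to 5544 and 2629 CPM. They summed to 2103 and 1081 CPM in non-classical monocytes, where Il1r2 was at 0 in the saline library. Endothelial markers in neutrophils summed to 99.6 and 292 CPM. Genes induced by tissue dissociation summed to 12993 and 16582 CPM in neutrophils, a log2 ratio of 0.35, and to 13905 and 14789 CPM in classical monocytes. Their part in these results was not tested.

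Neutrophils fell into 8 clusters whose cell numbers differed strongly between the libraries. In the saline library most cells lay in the clusters led by Retnlg and Cstdc5 (1236 and 1034 cells), by Saa3 and Cxcr2 (1168 cells) and by Stfa2l1 (1164 cells). In the NP library the largest were led by Retnlg and S100a9 (820 cells) and by Acod1, Rsad2 and Isg15 (689 cells, beside 76 saline cells). The members and the pathway genes described later had been kept out of the genes used for clustering.

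Within clusters, Nfkbia had a ratio above 0 in 8 of 8, from 0.65 to 1.51, and was at least 2-fold higher in 4. Tnfaip3 was above 0 in 7 of 7 with enough UMIs, from 0.61 to 1.48, and Traf1 in 7 of 7, from 0.14 to 1.73. Tnfaip2 was above 0 in 8 of 8, from 0.12 to 0.93. When both libraries were given the same mix of clusters, the neutrophil ratios were 1.05 for Nfkbia, 0.95 for Tnfaip3, 1.11 for Traf1, 0.61 for Tnfaip2, 0.22 for Relb and 0.63 for Tnf. Tnfaip3 was then no longer called.

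The Tnf ratios had a wider range over clusters than those of the inhibitors. In the cluster led by Ngp, Camp and Ltf, granule genes of immature neutrophils, it was 27.2 and 28.1 CPM, and this cluster held 317 of the 681 saline and 210 of the 600 NP neutrophil UMIs. In the cluster led by Saa3 and Cxcr2 it was 11.6 CPM from 48 UMIs and 41.7 CPM from 68 UMIs, a log2 ratio of 1.85 (1.30 to 2.41). Here 3 NP cells, with 20, 8 and 6 UMIs, held 34 of the 68. Without the 3 highest cells of each library Tnf was 9.43 and 21.1 CPM, a ratio of 1.16 (0.45 to 1.86). In the cluster led by Acod1 and Rsad2 it was 39.9 CPM from 13 UMIs and 50.4 CPM from 160 UMIs. Of those 13, 1 saline cell held 10, and 3 cells held them all. Without the 3 highest cells of each library the NP level was 36.8 CPM. Tnf ratios ran from -0.55 to 1.85 over 6 clusters, with the interval above 0 in 2 and below 0 in 0. The second of these 2, led by Retnlg and S100a9, had 28 saline and 86 NP UMIs. Without the 3 highest cells of each library its ratio was 0.70, with an interval that included 0 (-0.04 to 1.49). The Tnf ratios rested on far fewer UMIs than those of Nfkbia, which had 17673 saline and 21151 NP UMIs in neutrophils. The receptor ratios stayed between -0.39 and 0.26.

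**Figure D5:**
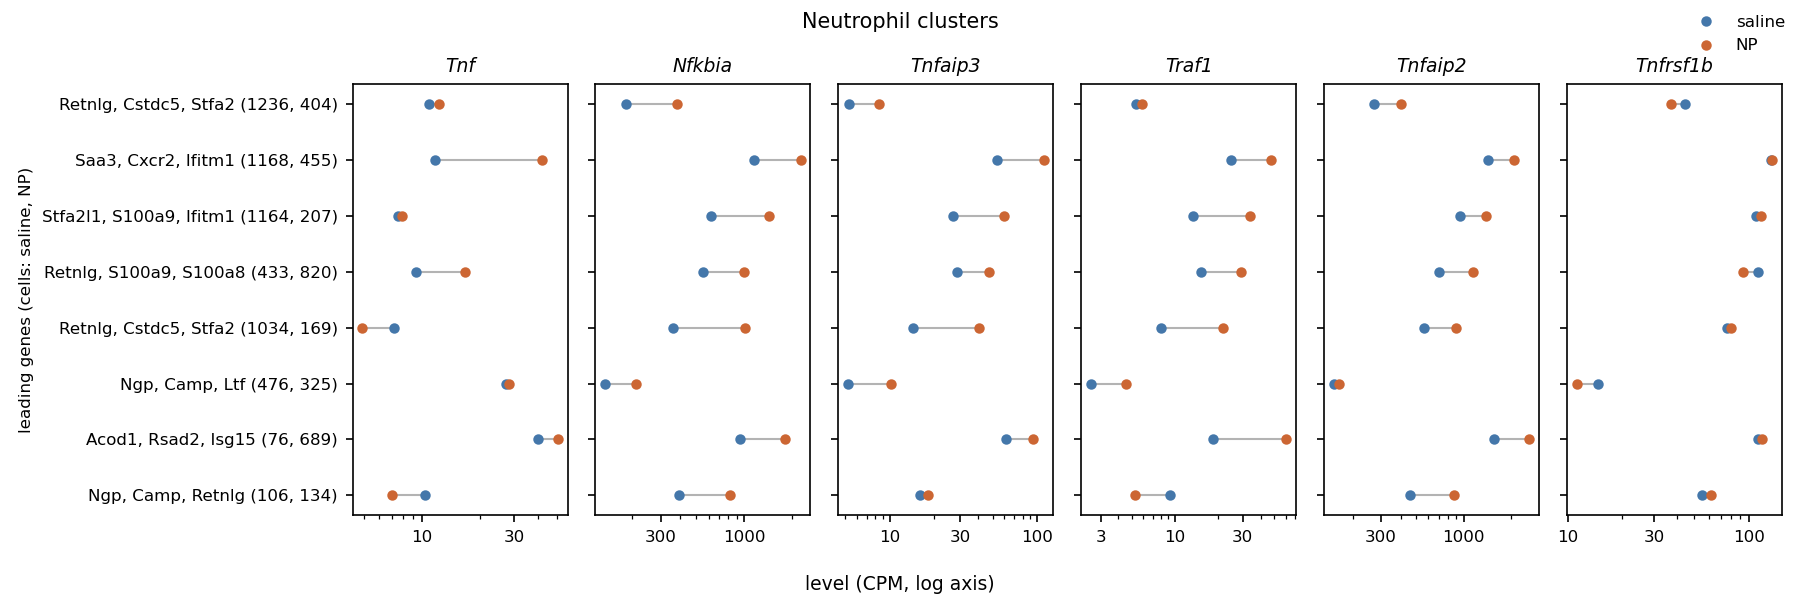
Levels (CPM, log axis) of 6 members in the 8 neutrophil clusters, named by leading genes with the number of saline and NP cells in brackets. Blue points are the saline and orange points the NP library; Nfkbia is to the right in the NP library in all 8 clusters, Tnf differs most in the cluster led by Saa3 and Cxcr2, and the Tnfrsf1b ratios lie between -0.39 and 0.16.

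Classical monocytes were likewise split. The saline cells lay mostly in a cluster led by Ccr2 and S100a4 (382 saline and 141 NP cells), and the NP cells in clusters led by Ms4a6c and Ccr2 (37 and 296 cells) and by F13a1 and Fn1 (162 and 269 cells). In these 3 clusters Nfkbia had ratios of 0.81 to 0.93, Tnfaip3 of 0.72 to 1.23 and Traf1 of 0.81 to 1.60.

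Cells that held a Tnf UMI were set beside those that did not, as a description, since a Tnf UMI is more likely in a deeper cell. In NP classical monocytes, the 33 cells with Tnf had 131 CPM of Tnfaip3 and 547 CPM of Nfkbia, against 55.9 and 264 CPM in the other 750, at median depths of 16852 and 16539.5 UMIs. In saline alveolar macrophages Tnfaip3 was 114 CPM in the 28 cells with Tnf and 40.7 CPM in the other 147. In NP alveolar macrophages it was 81.5 and 68.6 CPM, a log2 ratio of 0.25 (-0.15 to 0.63), and that of Nfkbia was 0.13 (-0.09 to 0.34). In neutrophils the depths differed widely, at 15162 and 5784.5 UMIs in the saline library. There the cells with Tnf had less Tnfrsf1b, at 25.5 against 67.7 CPM in the saline and 36.2 against 68.9 CPM in the NP library. Tnfrsf1a, Tnfaip2, Nfkb1, Relb and Birc3 were also lower in them in both libraries, and Nfkbia was higher. The cluster led by Ngp, Camp and Ltf held 317 of the 681 saline neutrophil Tnf UMIs. Tnfrsf1b ran from 13.3 to 134 CPM over the neutrophil clusters. The part of the clusters in this contrast was not tested.

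The rest of the pathway was read from lists of genes other than the members. These lists were chosen with earlier results of these data known. The study had already reported Irf1 in neutrophils, Cxcl2 and Marcksl1 in monocytes, and Sod2, Cxcl2 and the member Tnfaip2 in dendritic cells as higher with NPs. It also reported TNF signaling gene sets as upregulated in neutrophils, monocytes and dendritic cells. The counts below, set beside the share of all genes, are therefore descriptions and not an independent check. In neutrophils, 7 of 23 NF-κB target genes were at least 2-fold higher and none lower, beside 5.46% of all genes, with a median of 0.87, led by the adhesion molecule Icam1 (1.77), the transcription factor Irf1 (1.59) and the chemokine Cxcl1 (1.47). In classical monocytes 9 of 26 were higher and none lower, beside 1.34% of all genes, with a median of 0.73, led by the chemokines Ccl5 (3.17), Cxcl2 (2.57, from 700 and 5527 UMIs) and Cxcl1 (2.11). Non-classical monocytes had 8 of 20 higher, beside 3.00% of all genes, with a median of 0.55. Alveolar macrophages had 9 of 23 higher, beside 1.10%, with a median of 0.42. That class includes the sub-cluster with neutrophil markers, whose part in this count was not tested. Dendritic cells had 0 of 17 higher, beside 1.33% of all genes, and 2 lower, beside 1.63%. Of these 17, 5 had intervals below 0 and 2 above 0, with a median of -0.12. This differs from the study's dendritic cell result, which rests on its own annotation, not used here. The dendritic cell class again leaves out the unnamed cluster of 2 saline and 30 NP cells with Fscn1 and Ccr7 among its leading genes. The target genes were not counted in that cluster. Among 10 other NF-κB subunits and inhibitors, 1 was higher in neutrophils, beside 5.46% of all genes. It was the inhibitor gene Nfkbie (1.25, from 252 and 309 UMIs), and the list had a median of 0.37. In classical monocytes 0 of 11 were called, beside 1.34% of all genes higher. In non-classical monocytes 1 of 11 was higher (3.00%), in alveolar macrophages 1 of 10 (1.10%) and in NK cells 1 of 5 (1.08%).

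Of 25 receptor signaling and processing genes in neutrophils none was at least 2-fold higher or lower, with a median of -0.02, and of 26 in classical monocytes none was, with a median of 0.04. Of all genes, 5.46% were higher and 1.11% lower in neutrophils, and 1.34% and 0.590% in classical monocytes. Elsewhere 1 of 20 signaling and processing genes was higher in non-classical monocytes (3.00% of all genes). Lower were 1 of 24 in alveolar macrophages (0.277%) and 1 of 11 in dendritic cells (1.63%). Among other TNF superfamily ligands in neutrophils, 3 of 6 were higher, beside 5.46% of all genes. They were Tnfsf10, the death ligand TRAIL (2.45, from 36 and 101 UMIs), Tnfsf12 (1.19, from 29 and 34 UMIs) and Tnfsf13 (1.04, from 34 and 36 UMIs). All were low, at 0.738 and 4.02 CPM, 0.594 and 1.35 CPM, and 0.697 and 1.43 CPM. None of 5 was called in classical monocytes, beside 1.34% of all genes higher and 0.590% lower. Of the dissociation stress genes 0 of 16 in neutrophils (5.46% of all genes higher) and 0 of 17 in classical monocytes (1.34%) were called. Their medians were 0.16 and 0.14, with intervals above 0 in 8 and 11 genes and below 0 in 3 and 4. In NK cells 2 of 15 were higher and 1 lower (1.08% each way). In fibroblast and mural cells 3 of 16 were higher (5.34%) and in erythroid cells 3 of 12 (8.04%). Non-classical monocytes, alveolar macrophages and epithelial cells had 1 higher each (3.00%, 1.10% and 14.6%), and dendritic cells 1 lower (1.63%).

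Over 24 points, 12 classes in each of 2 libraries, the genes most like each member were found by Pearson correlation of log2(CPM + 10) among 11572 genes. Points of 1 library share depth and free RNA, so the values describe likeness only. Tnfrsf1b was closest to Stat6 (0.945), Adap1 (0.934) and Lair1 (0.931), Nfkb1 to Eif4g3 (0.934), Hps3 and Slc4a7, and Tnfaip2 to Bst1 (0.920), Fpr2 and Nlrx1. Tnfaip3 was closest to Dbf4 (0.908), Ptpn7 and Agap2, and Tnfrsf1a to Hlx (0.902), Sqor and Sec14l1. Traf1 was closest to Pkp3 (0.878), Arf6 and Rasgrp1, Birc3 to Stap1 (0.862), Tmem131l and C130026I21Rik, and Relb to 9930111J21Rik2 (0.849), H2-T23 and Wasf2. Tnf (Plcb2 at 0.802, Basp1, Fut7) and Nfkbia (Psmb9 at 0.795, Irf1, H2-T23) had the least close partners. Among the members themselves the closest pairs were Tnfaip3 with Traf1 (0.73), Nfkb1 with Relb (0.66) and Nfkbia with Relb (0.63), and Tnf reached at most 0.38, with Tnfaip2.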

How the data were processed

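Single-cell counts of 2 libraries, 1 saline and 1 NP, were used. The authors made the deposited UMI counts, per the labels with bcl2fastq, Cell Ranger 6.0 and mm10; levels are not compared between genes, and the share of Tnfrsf1b among both receptors' UMIs is read between classes and libraries only. The libraries held 91168129 and 90081747 UMIs over 32285 genes. No column lacked a sample.

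From these counts, cells with 500 to 5000 genes and under 7.5% mitochondrial UMIs were clustered together on the 2000 most variable genes without the members and list genes (30 principal components, 20 neighbors, Leiden resolution 1) and the clusters of monocytes, macrophages and dendritic cells were clustered again. Doublets were kept; Scrublet, run by library, marked 123 saline (1.42%) and 317 NP cells (3.80%), which were removed as an alternative. Classes came from marker lists. The authors' own annotation was not used here, so names are rebuilt. Ratios are of pooled CPM, with a count under 3 set to 3, exact Poisson intervals for levels, conditional binomial for ratios and Clopper-Pearson for shares. Clustering used scikit-learn 1.9.0 and leidenalg 0.10.2, Scrublet scanpy 1.11.5, and intervals scipy 1.17.1, run under Python 3.11.15. The calculation was tested on simulated data with 200 changed genes.

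The members and gene lists were chosen with earlier results of these data known. Named genes were the members, up to 3 called genes at each end of each list in neutrophils and classical monocytes, and the 3 genes most like each member. Genes that define clusters, and pairs outside this rule, were named after their values were seen. Alternatives were gene minimums of 200 and 800, mitochondrial limits of 5% and 10%, doublet removal, resolution 2, all variable genes, naming each cell singly by its markers, a 1.5-fold limit, centering, equal weight per cell, the highest cell left out, free RNA subtracted, the same cluster mix and other thinning depths. Leaving out the sub-cluster of alveolar macrophages with neutrophil markers, the neutrophil cluster with endothelial markers, or the 3 cells with most Tnf in a class or neutrophil cluster was chosen after seeing the data. Gene positions are from GENCODE vM21 on GRCm38.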

Additional observations from a re-analysis of the deposited data

Results flagged for a closer look

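The ratios of 6 pairs lay below 0, with the interval below 0, while the same gene stood above 0.5 in at least 1 other class; the difference between classes was not tested. Tnf had log2 ratios of -2.0 in alveolar macrophages and -1.51 in dendritic cells, against 0.78 in neutrophils. Both low values rested on few saline cells. Without the 3 highest cells of each library they were -0.35 (-0.95 to 0.27) and -0.47 (-2.28 to 1.25), against 0.70 (0.53 to 0.86) in neutrophils. Tnfaip2 had -0.75 in dendritic cells and -0.58 in B cells, against values above 0.5 in 6 classes. Tnfaip3 had -0.68 in dendritic cells, against values above 0.5 in 5 classes, and Birc3 had -0.86 in fibroblast and mural cells, against 0.81 in non-classical monocytes. The dendritic cell value of Tnfaip2 was 0.49 with each cell named singly by its markers. The B cell value of Tnfaip2 was 0.24 with a minimum of 200 genes and -2.59 with doublets removed.

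Cells outside every ratio also held Tnf. Unnamed clusters held 10.7% of the Tnf UMIs of the NP library and interstitial macrophages 6.72%, against 2.11% and 1.01% in the saline library. Of the UMIs of all genes, unnamed clusters held 10.3% in the NP and 4.55% in the saline library. Their Tnf share in the NP library was thus close to their share of all UMIs. Interstitial macrophages held 0.686% and 0.224% of all UMIs.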

How the results depend on the processing

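With 1 library per group, every interval covers counting error only, and no paired analysis was possible because each group holds 1 library; for the same reason no replicate could be left out. Over 13 settings, 9 of the 15 called pairs stayed at 2-fold or more in every setting that gave a value, and 68 of 99 pairs kept the sign of the ratio. With the fold limit at 1.5, the called members numbered 5 rather than 3 in neutrophils, 3 rather than 1 in classical monocytes and 28 rather than 13 over all classes. The share of all genes called was not computed at this limit or in the other settings, so these counts cannot be set beside a background. In classical monocytes 2 were called with a minimum of 200 genes or with each cell named singly by its markers, Nfkbia being the added gene. Without the alveolar macrophage sub-cluster and the neutrophil cluster with other markers, 12 were called over all classes. Traf1 in alveolar macrophages came out at -0.60 with a minimum of 800 genes, a mitochondrial limit of 5% or without the sub-cluster with neutrophil markers (with or without the highest cell), from 0 to 3 UMIs in all, so that both libraries stood at the floor of 3 and the value gives no direction for Traf1. It was -0.57 from 5 UMIs with each cell named singly. Tnf in neutrophils was 1.25 with equal weight per cell. The share of neutrophils with a Tnf UMI was 2.02% saline and 3.34% NP at 2000 UMIs, and 6.87% and 9.24% unthinned. The neutrophil share of all Tnf UMIs was 74.3% and 60.6% with a mitochondrial limit of 5%, and 68.1% and 60.8% with doublets removed. Tnfaip2 in epithelial cells fell below 2-fold in 4 of 12 settings (lowest 0.42) and in erythroid cells in 2 (lowest 0.94). The causes were not tested.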

Other observations

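An unnamed cluster led by Aif1, H2-Aa, H2-Eb1 and Ms4a6d held 58 saline and 317 NP cells. In it Tnfaip2 was 77.4 CPM in the saline and 264 CPM in the NP library, a log2 ratio of 1.77 (1.41 to 2.16), and Traf1 was 38.1 and 106 CPM, a ratio of 1.48 (0.96 to 2.05). Tnfaip3 (0.98, 0.48 to 1.53), Nfkbia (0.82, 0.60 to 1.05) and Relb (0.72, 0.12 to 1.38) also had intervals above 0. Tnfrsf1b, at 299.6 and 321 CPM, had a ratio of 0.10 (-0.09 to 0.30). Tnf was 6.14 CPM from 5 UMIs and 10.8 CPM from 53.

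A second unnamed cluster, led by Ccl5, Il4i1 and Bcl2a1d, held 30 NP and 2 saline cells. Fscn1 and Ccr7, both on the dendritic cell marker list, were also among its leading genes. By marker score it was closest to non-classical monocytes (2.04) and then to dendritic cells (1.407). Because markers of the lower-scoring class led, the cluster stayed outside the dendritic cell class. Its NP cells had 1356 CPM of Nfkbia, 381 CPM of Traf1, 359.9 CPM of Relb and 975 CPM of Tnfaip2, the Relb and Traf1 levels being above those of every named class in that library, where the highest were 58.0 CPM in B cells and 254 CPM in non-classical monocytes.

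Basophils, with 21 saline and 39 NP cells, had the highest Nfkbia and Tnfaip3 of the named classes. For Tnfaip3 in the saline library they were not told apart from NK cells, at 262 CPM (225 to 304). Nfkbia was 2991 CPM (2739.6 to 3259) in the saline and 4388 CPM (4142 to 4646) in the NP library, and Tnfaip3 350.2 CPM (268 to 449.8) and 639 CPM (547 to 741). Neutrophil markers in basophils summed to 20862 and 4559 CPM.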
